A study of Mus musculus with 12 samples.

Results

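The genes described here are 37 type I interferon stimulated genes, taken from a list of gene symbols and followed across 12 RNA sequencing libraries. All 37 were found in the symbol column of the deposited count table, which holds 16352 genes, and all 37 passed the filter on low counts that left 12404 genes to test. No measured value of the libraries enters the list itself, but the list was put together with earlier results of these data known. The libraries were made from primary CD8 T cells of the spleen of C57BL/6 mice. Mice were wild type (WT) or carried a conditional knockout of Trmt61A (cKO), and with sampling times of 0 h and 48 h this makes 4 groups of 3 libraries. The cKO groups lack, by label, Trmt61a, which encodes the catalytic subunit of the methyltransferase that places m1A on tRNA, and the series title links this mark to cholesterol synthesis and antitumour function of CD8 T cells. The labels give neither the Cre driver of the deletion, nor the age of the mice, nor what the cells received between 0 h and 48 h, nor whether a replicate number is 1 mouse. The p-values therefore measure the spread between these libraries, which may be in part technical.

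Type I interferons bind the receptor made of Ifnar1 and Ifnar2, and the receptor kinases Jak1 and Tyk2 are then activated. They set off assembly of the complex ISGF3, which holds Stat2 and Irf9, enters the nucleus and binds the interferon-stimulated response element (ISRE) in the promoters of its target genes. The targets sense foreign nucleic acid, restrict virus replication, modify proteins with the ubiquitin-like tag Isg15, and feed back on the pathway itself. T cells keep a low basal level of these genes, and type I interferon acts on CD8 T cells as a signal that accompanies antigen and costimulation.

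Totals per library lay between 34341847 and 40270659 counts. Levels are given in CPM (counts relative to the library total, scaled with TMM factors), in the order of replicates 1, 2 and 3, and fold changes are log2 values with their standard error from 3 libraries a group. Trmt61a was at 26.3 to 29.8 CPM in WT at 0 h and at 34.8 to 42 CPM in WT at 48 h. It fell to between 0.807 and 1.88 CPM in cKO replicates 2 and 3 but stood at 28.1 and 42.5 CPM in the libraries labelled cKO replicate 1, so the first value of each cKO group comes from a library that goes against its label. WT replicate 3 had at most 2 counts of any of 4 Y-linked genes, each of which had at least 694 counts in every other library. Cd8a, which encodes the CD8 alpha chain, had between 25035 and 53458 counts in every library. The tests below keep the groups as labelled, so fold changes of cKO include the libraries labelled replicate 1 unless stated otherwise. Values without the doubted libraries are given for only some of the results.

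The promoters of the list held ISRE matches far more often than those of other genes. A RefSeq promoter on GRCm38.p6, running from 250 bases before the annotated start to 50 bases after it, was matched by gene identifier for 30 of the 37 genes. The motif searched was GAAA, any 2 bases and again GAAA, on both strands, with overlapping matches kept. It occurred in 15 of these 30 genes, or 50%, beside 3.9% of the 9941 tested genes with a promoter and 3.44% of all 32851 promoters. For 6 genes 1 promoter held 2 or more matches. A gamma-activated site, searched as TTCNNNGAA, occurred in 6 of the 30 genes, or 20%, beside 8.35% of tested genes. The list contains genes known as ISGF3 targets, so a high share of the element belongs to what the list is.

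The 6 promoters below carry the genes whose levels are described most closely: Isg15 with its 3 overlapping matches, the Ifit cluster, in which the paired matches recur from gene to gene, and Eif2ak2 and Stat2, which rose over time in WT. Each runs 5′ to 3′ on the strand of its gene, and capitals mark the bases of ISRE matches. On GRCm38.p6 they lie at chr4:156200769-156201068 (Isg15, minus strand), chr19:34640639-34640938 (Ifit1, plus strand), chr19:34583279-34583578 (Ifit3, plus strand), chr19:34607707-34608006 (Ifit3b, plus strand), chr17:78882523-78882822 (Eif2ak2, minus strand) and chr10:128270248-128270547 (Stat2, plus strand).
Isg15: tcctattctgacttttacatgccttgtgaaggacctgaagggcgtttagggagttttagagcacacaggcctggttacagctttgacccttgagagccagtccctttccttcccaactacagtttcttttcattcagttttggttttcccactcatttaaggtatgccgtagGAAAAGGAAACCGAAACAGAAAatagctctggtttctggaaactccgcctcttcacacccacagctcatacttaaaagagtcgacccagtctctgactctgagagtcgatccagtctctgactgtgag
Ifit1: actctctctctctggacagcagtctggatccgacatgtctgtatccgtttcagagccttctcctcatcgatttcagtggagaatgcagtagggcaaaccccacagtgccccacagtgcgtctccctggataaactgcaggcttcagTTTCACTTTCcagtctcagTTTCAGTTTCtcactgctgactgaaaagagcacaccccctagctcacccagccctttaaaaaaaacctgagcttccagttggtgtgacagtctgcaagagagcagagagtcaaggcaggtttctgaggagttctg
Ifit3: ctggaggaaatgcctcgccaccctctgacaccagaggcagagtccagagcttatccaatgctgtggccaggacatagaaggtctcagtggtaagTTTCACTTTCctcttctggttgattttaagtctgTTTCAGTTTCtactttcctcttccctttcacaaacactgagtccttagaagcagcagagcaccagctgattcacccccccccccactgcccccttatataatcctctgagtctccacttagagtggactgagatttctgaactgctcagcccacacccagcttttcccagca
Ifit3b: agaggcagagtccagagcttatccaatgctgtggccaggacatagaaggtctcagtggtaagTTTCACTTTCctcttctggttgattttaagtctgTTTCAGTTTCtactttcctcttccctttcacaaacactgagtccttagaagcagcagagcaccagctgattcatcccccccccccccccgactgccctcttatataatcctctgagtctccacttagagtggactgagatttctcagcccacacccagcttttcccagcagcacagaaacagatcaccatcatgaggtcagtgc
Eif2ak2: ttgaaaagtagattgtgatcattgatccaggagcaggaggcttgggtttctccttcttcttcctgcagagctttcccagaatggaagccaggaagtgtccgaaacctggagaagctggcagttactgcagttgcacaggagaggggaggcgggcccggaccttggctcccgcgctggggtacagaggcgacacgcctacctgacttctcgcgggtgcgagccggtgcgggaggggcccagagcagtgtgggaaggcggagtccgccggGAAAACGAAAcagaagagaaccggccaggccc
Stat2: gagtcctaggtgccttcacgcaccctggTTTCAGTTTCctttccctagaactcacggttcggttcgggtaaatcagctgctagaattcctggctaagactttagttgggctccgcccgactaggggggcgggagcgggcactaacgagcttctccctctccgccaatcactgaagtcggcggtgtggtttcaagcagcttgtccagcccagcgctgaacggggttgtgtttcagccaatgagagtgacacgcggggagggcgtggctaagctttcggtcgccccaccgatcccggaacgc

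In Isg15 the matches began 78, 72 and 66 bases before the start, on the strand of the gene, and ran into each other. In Ifit1, Ifit3 and Ifit3b both matches of each promoter read TTTCACTTTC and TTTCAGTTTC on the gene strand, which is the element on the opposite strand. Ifit3 and Ifit3b are near copies: their promoters were 75% identical over 268 bases aligned without gaps, and their longest coding transcripts were 98% identical over 1697 aligned bases. Reads that fit both copies can be assigned to either or left uncounted. The levels of Ifit3 and Ifit3b, and the split between them, are therefore uncertain. Oas1a, Trim30a, Ifi203 and Phf11b also belong to clusters of related mouse genes, and their counts carry the same doubt. In Eif2ak2 the match lay inside the transcribed part, 18 bases after the start.

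**Figure D1:**
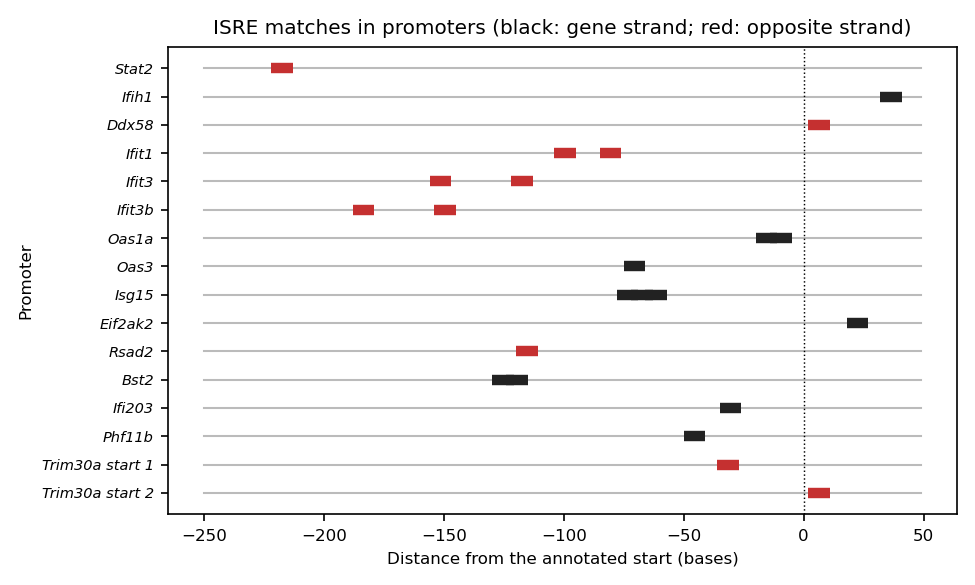
Positions of ISRE matches in the promoters that hold one, in bases from the annotated start, with black bars for the gene strand and red bars for the opposite strand. Isg15 shows 3 overlapping matches that begin 78, 72 and 66 bases before the start, and Ifit1, Ifit3 and Ifit3b show 2 separate ones each; Trim30a has 2 annotated starts with 1 match each.

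At 0 h the list was highest in 1 library, cKO replicate 3. The mean over the 37 genes of the log2 level, taken against each gene's mean over the 3 WT libraries of the same time, was -0.31, 0.31 and -0.00 in WT at 0 h. It was -0.08, 0.37 and 1.15 in cKO at 0 h, so that cKO replicate 3 stood 2.21-fold above the WT mean while the library labelled cKO replicate 1 lay within the WT range. The median over all tested genes on the same scale was between -0.00 and 0.01 in every library. Summed over the list, the levels were 3102, 3982 and 3755 CPM in the WT libraries and 3322, 3789 and 5635 CPM in cKO. For 35 of the 37 genes cKO replicate 3 was the highest of the 6 libraries at 0 h, beside 18% of all tested genes. The other 2 were Dtx3l and Sp100. At the low end, WT replicate 1 was the lowest of the 6 libraries for 30 genes, a measure not computed over all tested genes. Among the 3 WT libraries it was the lowest for 33 genes, beside 35.5% of all tested genes.

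At 48 h the order of genotypes was the other way round, again with wide differences inside each group. The mean log2 level was -0.47, 0.35 and 0.13 in WT and -0.69, -0.33 and -0.00 in cKO, and the summed levels were 2233, 3055 and 2796 CPM in the WT libraries and 2063, 2230 and 2495 CPM in cKO. WT replicate 2 was the highest of the 6 libraries for 29 genes, beside 12.3% of all tested genes, and the library labelled cKO replicate 1 was the lowest for 22. Among the 3 cKO libraries that library was the lowest for 31 genes, beside 39.6% of all tested genes. WT replicate 1, at -0.47, lay below both cKO replicates 2 and 3, so the groups overlapped.

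**Figure D2:**
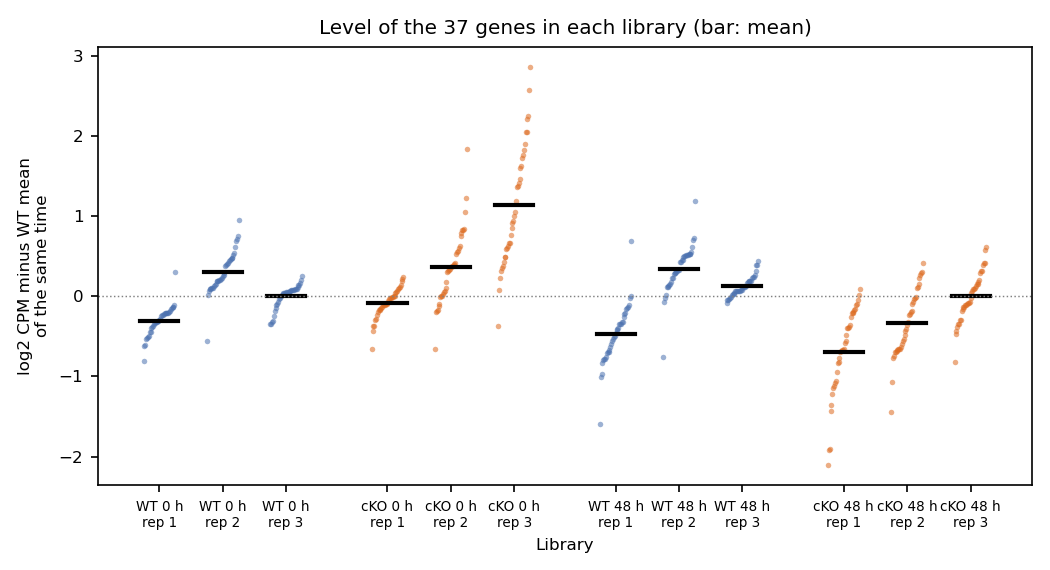
Level of each of the 37 genes in each library, as log2 CPM minus the mean of the 3 WT libraries of the same time, with 1 point per gene and a bar at the mean. The bar of cKO replicate 3 at 0 h stands at 1.15, and no other bar passes 0.37.

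Replicate numbers kept their rank over time. In WT the library with the highest level carried the same number at 0 h and 48 h for 30 of the 37 genes, beside 34.3% of all tested genes, and the lowest did so for 33, beside 34.1%. In cKO the figures were 34 genes beside 35.1% and 32 genes beside 34.8%. All 3 numbers kept their order for 27 genes in WT and 30 in cKO, beside 16.9% and 17.4% of tested genes.

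The libraries with high and low levels of the list also differed in other measured ways. Heat shock and dissociation markers (8 genes, all detected) summed to 2623, 1276 and 1789 CPM in WT at 0 h and to 4921, 2604 and 1146 CPM in cKO. Within each genotype this order was the reverse of that of the list, and cKO replicate 3 was the lowest of the 6. The genes of the sum varied unequally: in the cKO libraries at 0 h Hspa1a had 25672, 8062 and 225 counts and Hsph1 had 3433, 3296 and 3271. Plasmacytoid dendritic cell markers, those of the cell type known as the main producer of type I interferon, summed to 109.8 to 119 CPM in WT and to 112, 119 and 99.5 CPM in cKO at 0 h. All 9 were counted in some library, and Siglech, which defines these cells, had between 1 and 21 counts at 0 h and 0 at 48 h. Most of the sum at 0 h was Pacsin1, at 75.4 to 97.1 CPM over both genotypes. At 48 h the sum was 269.5 to 435 CPM, of which Irf8 alone made 204 to 383 CPM. The sum therefore does not follow Siglech. B cell markers (8 genes) summed to 111 to 189 CPM in the WT libraries and 90.1 to 109 CPM in cKO, and myeloid markers (9 genes) to 31.2 to 38.7 and 22.2 to 40.9 CPM. For each of these 3 lists cKO replicate 3 was the lowest of the 6 libraries at 0 h. Erythroid markers (6 genes) summed to 15.2, 96.4 and 9.23 CPM in WT and to 54.6, 109.8 and 67.8 CPM in cKO at 0 h, and so were high in WT replicate 2, like the list, and highest in cKO replicate 2. At 48 h the myeloid markers summed to 0.688 to 0.956 CPM in WT and 3.17 to 4.91 CPM in cKO, where S100a8 and S100a9 were called higher in cKO with at most 1 count in a WT library and 20 to 73 in a cKO library. NK markers (5 genes) then summed to 110.3 to 118 CPM in WT and to 113, 64.4 and 76.1 CPM in cKO. Nearly all of this sum came from Eomes, with 4030 to 4803 counts per WT library and 2422 to 4377 per cKO library. Every other NK marker had at most 24 counts in a library at 48 h, so the sum follows Eomes and not the rest. Heat shock markers at 48 h summed to 472 to 534 CPM over both genotypes. The part of any of these markers in the level of the list was not tested. Of the interferon genes themselves, 6 of 18 listed were in the table, none reached the filter, and their counts summed to between 0 and 9 per library. In bulk RNA, a change in the number of cells that express a gene and a change in the RNA per cell cannot be told apart.

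**Figure D3:**
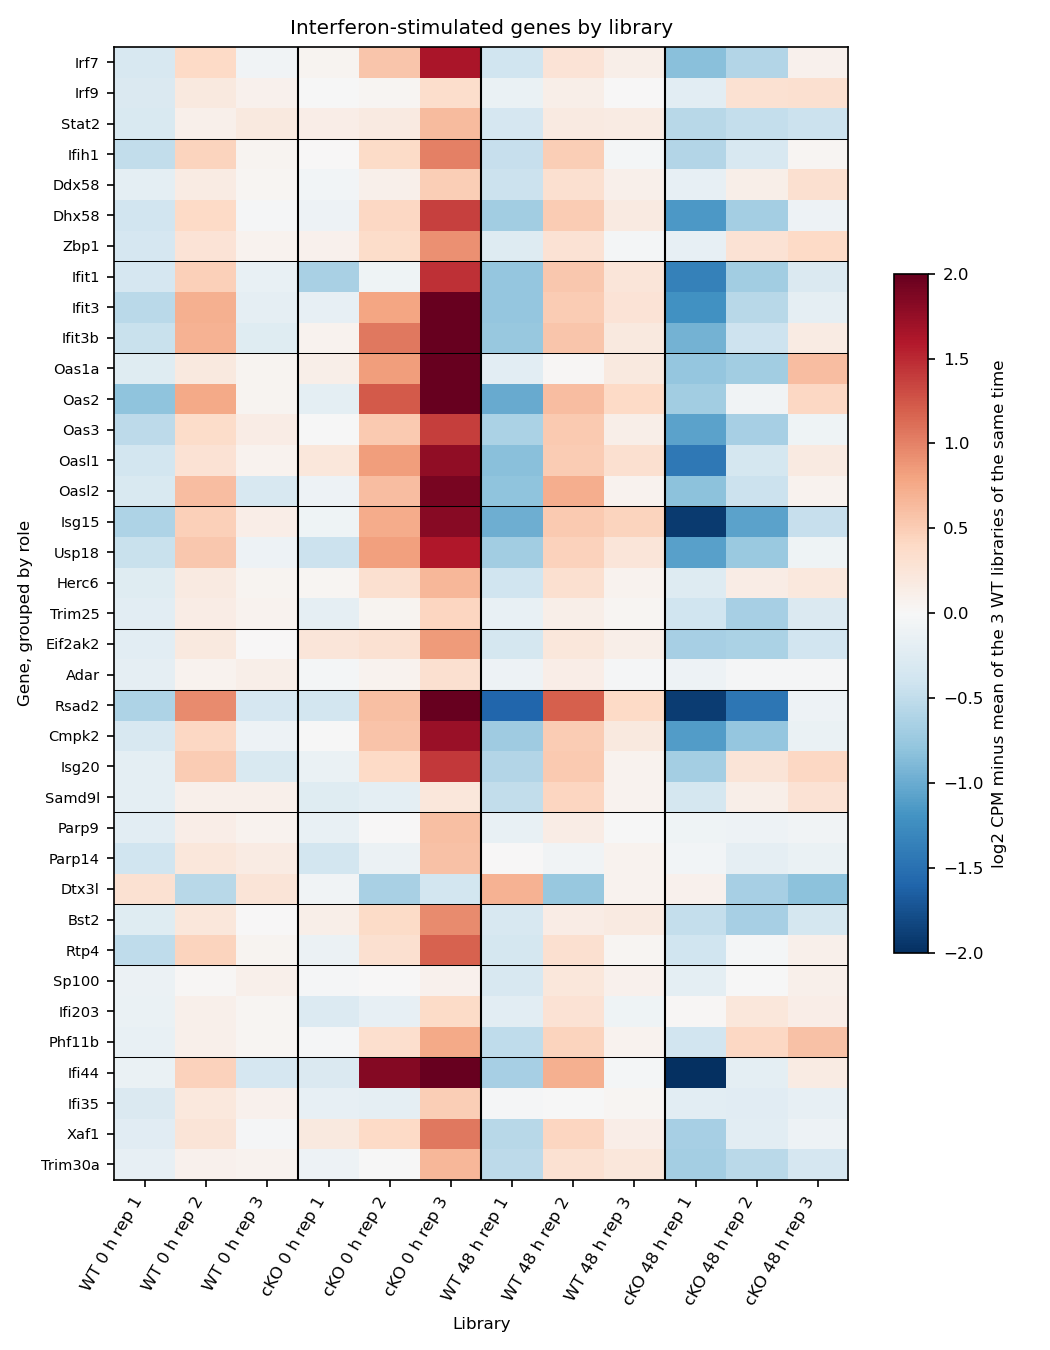
Log2 CPM of each gene minus its mean over the 3 WT libraries of the same time, in every library, with genes grouped by role between the thin lines and colours limited at -2 and 2. The column of cKO replicate 3 at 0 h is red for nearly all genes, deepest in the IFIT and OAS groups, and Dtx3l runs against the other rows.

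Between the genotypes at 0 h the test asked whether cells taken at 0 h differed by genotype. The 35 genes with a higher and the 2 with a lower cKO mean gave a median log2 fold change of 0.49, where the median of all tested genes was -0.00, but none of the 37 passed the test. With edgeR 0 genes of the list were called at an adjusted p under 0.05, beside 0.00806% of all tested genes, which is 1 gene. DESeq2 and limma-voom also called 0, and 13 of the 37 had an unadjusted p under 0.05, beside 9.38% of all tested genes. Adjusted p ran from 0.433 upwards. Without cKO replicate 3 at 0 h the median fell to 0.15. With both libraries labelled cKO replicate 1 left out the median was 0.68 and 1 gene, Ifi44, was called, beside 0.15% of all tested genes.

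The spread by role at 0 h was wide. The genes of the OAS group (Oas1a, Oas2 and Oas3, which make the oligoadenylate messenger that activates RNase L, and the related Oasl1 and Oasl2) had log2 fold changes between 0.70 and 1.22. Those of the IFIT group (Ifit1, which binds foreign RNA at its cap, and the related Ifit3 and Ifit3b) lay between 0.49 and 1.51. By contrast, the nuclear genes Sp100, a component of nuclear bodies, Ifi203, a DNA-binding PYHIN protein, and Phf11b, a PHD finger protein, lay between 0.01 and 0.39. The trio of Parp9 and Parp14, which are ADP-ribosyl transferases, and Dtx3l, the ubiquitin ligase that pairs with Parp9, lay between -0.40 and 0.18. None of these groups had a called member.

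Ifi44, an interferon-induced protein that damps the response in human cells, had the highest fold change at 0 h on very low levels. It was at 1.34, 2.06 and 1.15 CPM in the WT libraries and 1.2, 5.42 and 11.1 CPM in the cKO libraries. The library labelled cKO replicate 1 lay inside the WT range and the other two lay above it. The log2 fold change was 1.96 ± 0.68 (edgeR adjusted p = 0.44), and over 23 other settings it ran from 1.12 to 2.44 with adjusted p from 0.0477 to 0.874.

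Ifit3b was at 5.14, 11.4 and 5.93 CPM in the WT libraries and 7.39, 14.7 and 42.3 CPM in the cKO libraries at 0 h, with a log2 fold change of 1.51 ± 0.53 (adjusted p = 0.44). Its near copy Ifit3 was at 29.7, 70.8 and 38.2 CPM in the WT libraries and 38.5, 74.8 and 201 CPM in the cKO libraries, which gave a log2 difference of 1.18 ± 0.50 (adjusted p = 0.504). In both genes cKO replicate 3 was more than 2-fold above any other library of that time, and the other cKO libraries overlapped or came close to WT. Oas1a was at 8.24, 11.3 and 10.1 CPM in the WT libraries and 10.6, 17.6 and 40.7 CPM in the cKO libraries, with the smallest adjusted p of the list at 0 h (1.22 ± 0.42, adjusted p = 0.433). Without cKO replicate 3 at 0 h the log2 fold changes of Ifi44, Ifit3b and Oas1a were 1.12, 0.55 and 0.51. These 3 genes were picked after their values were seen, as those with the largest change at 0 h.

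Eif2ak2, the kinase PKR that halts translation when it binds double-stranded RNA, was the only gene of the list whose groups did not overlap at 0 h. It was at 33.5, 44.3 and 38.8 CPM in the WT libraries and 45.6, 47.6 and 70 CPM in the cKO libraries, so that the lowest cKO library stood just above the highest WT library. That lowest cKO library was the one labelled cKO replicate 1, with Trmt61a at the WT level. The log2 fold change of Eif2ak2 was 0.48 ± 0.17 (edgeR adjusted p = 0.44). Among all tested genes 7.32% had a cKO group wholly above WT at 0 h, and 1 of 37 does not set the list apart from that share. No member had a cKO group wholly below WT, beside 7.35%.

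Between the genotypes at 48 h edgeR again called 0 genes of the list, beside 4.18% of all tested genes in either direction, 3.1% higher and 1.09% lower. The median log2 fold change was -0.42, with 30 genes lower and 7 higher in cKO. At an unadjusted p under 0.05 there were 6 genes, beside 22.2% of all tested genes, while DESeq2 called 3, beside 8.82%, and limma-voom 0, beside 5.33%. The groups did not overlap, with cKO lower, for 5 genes (Stat2, Trim25, Eif2ak2, Bst2 and Ifi35), beside 11% of all tested genes, and 0 with cKO higher, beside 13.2%. Ifi35, an interferon-induced leucine zipper protein, differed by only -0.20 among them.

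Eif2ak2 had the smallest adjusted p at 48 h. It was at 98.9, 148 and 136 CPM in the WT libraries and 79, 81.1 and 96.5 CPM in the cKO libraries, which gave a log2 difference of -0.58 ± 0.17 (edgeR adjusted p = 0.0701). The highest cKO library lay just under the lowest WT library. The lowest cKO value, 79 CPM, came from the library labelled cKO replicate 1, which kept Trmt61a. DESeq2 gave an adjusted p of 0.0109, and over all other settings it ran from 0.0109 to 0.276.

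Stat2, the ISGF3 subunit particular to type I and type III interferon, was at 82.4, 118 and 117 CPM in the WT libraries and 71.3, 74.7 and 77.5 CPM in the cKO libraries at 48 h. Its groups were apart, with the libraries labelled cKO close together and WT replicate 1 the lowest WT library. The lowest cKO value, 71.3 CPM, came from the library labelled cKO replicate 1, which kept Trmt61a. The log2 fold change was -0.51 ± 0.16 (adjusted p = 0.0842), and DESeq2 gave an adjusted p of 0.021. Trim25, the ubiquitin ligase that activates RIG-I, was at 181, 219 and 206 CPM in the WT libraries and 153, 128 and 164 CPM in the cKO libraries, with a log2 fold change of -0.45 ± 0.14 (adjusted p = 0.0874; DESeq2 adjusted p = 0.0224). Bst2, the membrane protein tetherin that holds budding virus on the cell, was at 85.9, 119 and 122 CPM in the WT libraries and 77.1, 67.9 and 84.4 CPM in the cKO libraries, with a log2 fold change of -0.51 ± 0.19 (adjusted p = 0.132).

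Calls at 48 h turned on single libraries. Without WT replicate 1 at 48 h, 3 genes were called lower, beside 2.27% of all tested genes called in either direction: Eif2ak2 by -0.72 (adjusted p = 0.0385), Stat2 by -0.65 (adjusted p = 0.0416) and Trim30a by -0.77 (adjusted p = 0.0456). Without cKO replicate 3 at 0 h, 2 were called, Eif2ak2 and Trim25, beside 3.59%. With both libraries labelled cKO replicate 1 left out only Trim25 was called, at -0.47 (adjusted p = 0.0358), beside 17.7% of all tested genes, and the median of the list was -0.20. Without WT replicate 2 at 48 h the median was -0.14.

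The largest falls at 48 h were on genes with wide spread. Rsad2, the radical enzyme viperin that makes a chain-terminating nucleotide, was at 2.2, 15.5 and 8.9 CPM in the WT libraries and 1.76, 2.44 and 6.26 CPM in the cKO libraries. The groups overlapped, and the log2 fold change was -1.35 ± 0.73 (adjusted p = 0.297). Isg15 was at 20.5, 58.1 and 54.9 CPM in the WT libraries and 10.7, 19.2 and 29.1 CPM in the cKO libraries, with WT replicate 1 among the cKO values and a log2 fold change of -1.18 ± 0.48 (adjusted p = 0.166). Ifit1 was at 18.1, 44.9 and 36.9 CPM in the WT libraries and 12.1, 19.1 and 25.4 CPM in the cKO libraries, with a log2 fold change of -0.82 ± 0.46 (adjusted p = 0.314). These 3 too were picked after their values were seen, for the size of the change.

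**Figure D4:**
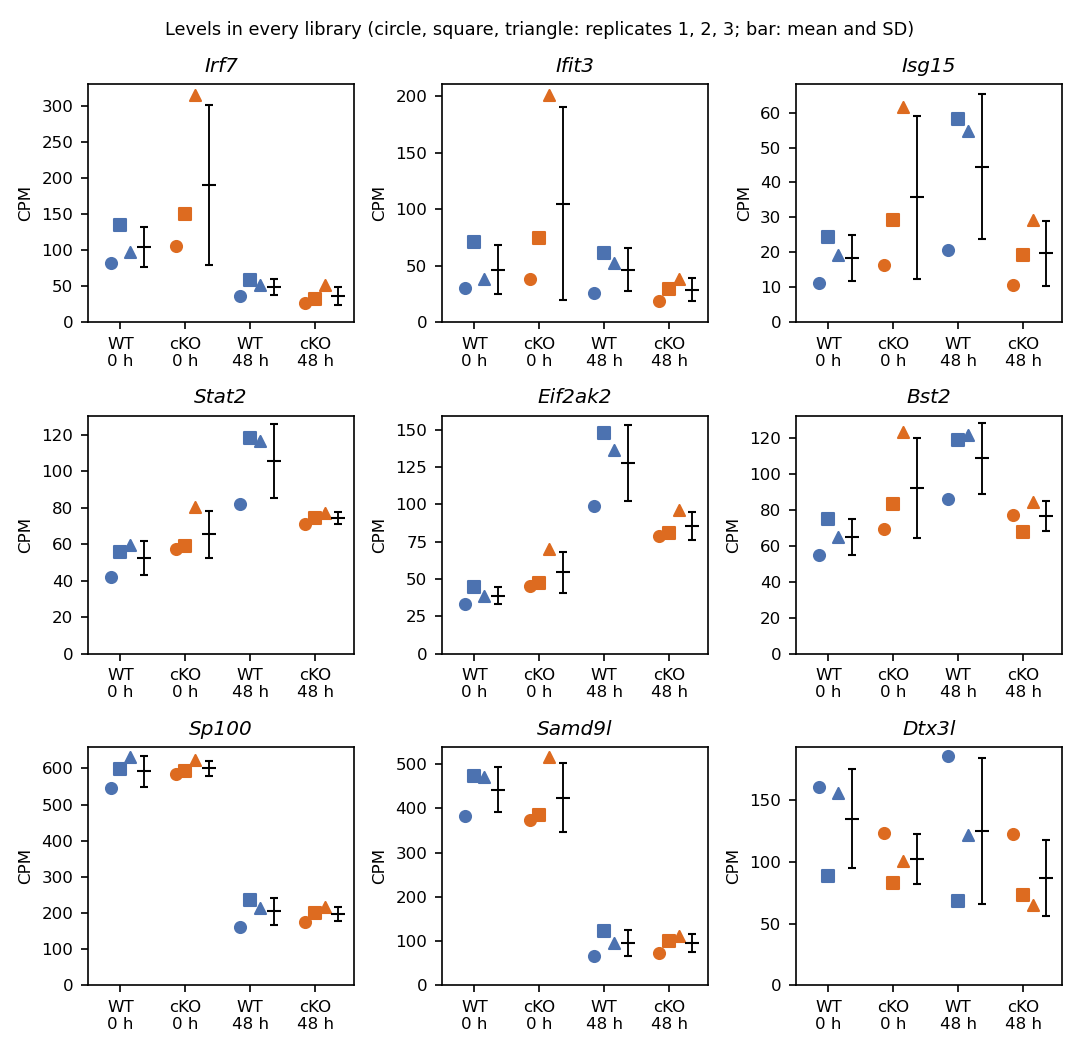
CPM in every library for 9 genes of the list, with WT in blue, cKO in orange, circles, squares and triangles for replicates 1, 2 and 3, and a bar for the mean and SD of the 3 libraries. Irf7, Ifit3 and Isg15 show cKO replicate 3 at 0 h far above the rest of its group, Eif2ak2, Stat2 and Bst2 show WT rising to 48 h above cKO, Sp100 and Samd9l fall over time in both genotypes, and Dtx3l follows none of these patterns.

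From 0 h to 48 h in WT the list divided. With edgeR 6 of the 37 genes rose, beside 36.9% of all tested genes, and 10 fell, beside 38.4%. A smaller share of the list than of all tested genes was therefore called: 16 of 37, where 75.4% of all tested genes were called in either direction. Such a count depends on the spread between libraries as well as on the size of the change. Libraries of the 2 times did not overlap for 6 genes that were higher at 48 h, beside 39% of all tested genes, and for 11 that were lower, beside 39.9%. The median log2 fold change was -0.11, against -0.02 over all tested genes. The genes that rose were Eif2ak2, Isg15, Stat2, Trim25, Bst2 and Parp9, and those that fell were Samd9l, Ddx58, Oas2, Ifi203, Sp100, Oasl1, Irf7, Irf9, Herc6 and Phf11b.

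Eif2ak2 rose most in WT, from 33.5, 44.3 and 38.8 CPM at 0 h to 98.9, 148 and 136 CPM at 48 h. The groups lay far apart, and the log2 fold change was 1.72 ± 0.18 (edgeR adjusted p = 4.28e-07). Stat2 rose from 41.8, 55.9 and 59.6 to 82.4, 118 and 117 CPM, by 1.01 ± 0.16 (adjusted p = 4.34e-05). Trim25 rose from 92.4, 118 and 112 to 181, 219 and 206 CPM, by 0.91 ± 0.14 (adjusted p = 4.03e-05). For Stat2 and Trim25, too, every 48 h library exceeded every 0 h library. Bst2 rose from 54.7, 75.2 and 64.9 to 85.9, 119 and 122 CPM, by 0.74 ± 0.19 (adjusted p = 0.00231), again with no overlap. Parp9 rose by 0.58 ± 0.15 (adjusted p = 0.00321).

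Isg15 rose from 11.2, 24.3 and 19.1 to 20.5, 58.1 and 54.9 CPM in WT, by 1.29 ± 0.48 (adjusted p = 0.0249). Its groups overlapped, since WT replicate 1 at 48 h lay below WT replicate 2 at 0 h. The call was lost without WT replicate 1 at 0 h (1.04, adjusted p = 0.0928), without WT replicate 3 at 0 h (adjusted p = 0.0509), without WT replicate 2 or 3 at 48 h (adjusted p = 0.0866 and 0.0785) and without both libraries of WT replicate 3 (adjusted p = 0.12). Of the other genes of this conjugation system, Usp18, which removes Isg15 and blocks the receptor, was at 22, 43.7 and 27.9 CPM at 0 h and 20.3, 45.3 and 38.8 CPM at 48 h in WT and was not called, and Herc6, the main Isg15 ligase of mice, fell by 0.99 ± 0.19 (adjusted p = 0.000256).

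The falls in WT were led by Samd9l, a restriction factor that represses translation, which went from 383, 474 and 472 to 65, 123 and 96.1 CPM. The log2 fold change was -2.23 ± 0.21 (adjusted p = 1.91e-07), with no overlap. Ddx58, which encodes the RNA sensor RIG-I, went from 137, 176 and 162 to 32.2, 54.1 and 46.4 CPM, by -1.84 ± 0.19 (adjusted p = 3.75e-07). Sp100 went from 546, 598 and 631 to 162, 237 and 213 CPM, by -1.54 ± 0.12 (adjusted p = 1.56e-08). All 3 nuclear genes fell in WT, Ifi203 from 359.5, 421 and 402 to 112, 160.0 and 123 CPM, by -1.58 ± 0.16 (adjusted p = 3.52e-07), and Phf11b by -0.82 ± 0.25 (adjusted p = 0.00924). The Phf11b call was lost without both libraries of WT replicate 3 (adjusted p = 0.0564).

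Among the signalling genes, Irf7, the transcription factor that amplifies interferon production, went from 81.5, 134 and 97 CPM to 36.4, 58 and 51.7 CPM in WT, by -1.10 ± 0.34 (adjusted p = 0.009). Irf9, the DNA-binding subunit of ISGF3, fell by 1.10 ± 0.15 on the log2 scale (adjusted p = 1.19e-05), in the opposite direction to its partner Stat2. Oas2 went from 13.6, 40 and 24.7 to 3.73, 11.6 and 9.93 CPM, by -1.63 ± 0.52 (adjusted p = 0.0113), with no overlap between the times. Oasl1, which restrains the translation of Irf7, went by -1.14 ± 0.43 (adjusted p = 0.0257). The Oas2 call was lost without WT replicate 2 at 0 h (-1.18, adjusted p = 0.0661) and with limma-voom (adjusted p = 0.0505). The Oasl1 call was lost without WT replicate 2 or 3 at 0 h (adjusted p = 0.0796 and 0.0517), without WT replicate 1 at 48 h (adjusted p = 0.103) and without both libraries of WT replicate 3 (adjusted p = 0.0744).

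From 0 h to 48 h in cKO most of the list fell. With edgeR 26 of the 37 genes fell, beside 36.2% of all tested genes, and 2 rose, beside 36.4%; 72.6% of all tested genes changed in either direction. The median log2 fold change was -1.15, against -0.02 over all tested genes. The times did not overlap for 19 genes lower at 48 h, beside 37.5%, and 1 higher, beside 37.3%. All 5 OAS genes, all 3 IFIT genes and all 4 sensors (Ifih1, which encodes the long-RNA sensor MDA5, Ddx58, Dhx58, their regulator LGP2, and Zbp1, a sensor of Z-form nucleic acid) were among those that fell. Both genes that rose, Eif2ak2 and Trim25, also rose in WT.

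The size of this fall rested in part on 1 library. Without cKO replicate 3 at 0 h, 22 genes were called, 18 lower and 4 higher, beside 68.6% of all tested genes, and the median was -0.70. The calls lost with that library were Ifih1 (-0.39, adjusted p = 0.234), Dhx58 (-0.68, adjusted p = 0.0862), Zbp1 (-0.29, adjusted p = 0.204), Ifit1 (-0.60, adjusted p = 0.148), Ifit3b (-0.87, adjusted p = 0.0881), Oas3 (-0.37, adjusted p = 0.322), Usp18 (-0.77, adjusted p = 0.101) and Trim30a (-0.38, adjusted p = 0.0797). With the 48 h library labelled cKO replicate 1 left out, 24 genes were called, beside 68.5%, and the calls of Ifih1, Zbp1, Oas3 and Trim25 were lost (adjusted p = 0.122, 0.119, 0.149 and 0.0775). Of the 28 calls, 19 held under each of the 23 other settings. With both libraries labelled cKO replicate 1 left out, 28 genes were again called, 1 higher and 27 lower, beside 66.4% of all tested genes. The median was then -1.26.

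Oas2 fell most in cKO, from 20.8, 55.7 and 98.4 CPM at 0 h to 4.63, 7.17 and 10.1 CPM at 48 h. Every 48 h library was below every 0 h library, and the log2 fold change was -2.998 ± 0.54 (edgeR adjusted p = 0.00017). Oasl1 went from 12.7, 19.4 and 37.2 to 1.69, 3.61 and 5.24 CPM, by -2.71 ± 0.45 (adjusted p = 6.72e-05). Rsad2 went from 7.24, 14.3 and 44.7 to 1.76, 2.44 and 6.26 CPM, by -2.66 ± 0.74 (adjusted p = 0.00492). For both genes, too, the times did not overlap.

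Irf7 went from 106, 149.7 and 315 to 26.9, 31.7 and 50.8 CPM in the cKO libraries, by -2.38 ± 0.35 (adjusted p = 2.4e-05). Samd9l went from 374, 384 and 516 to 71.6, 99.5 and 112 CPM, by -2.17 ± 0.21 (adjusted p = 2.94e-07). The Samd9l fall was close in size to that in WT, and Sp100, which went from 584, 593 and 624 to 175, 201 and 215 CPM (-1.61 ± 0.12, adjusted p = 1.2e-08), likewise. For both genes every 48 h library was below every 0 h library.

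Oas3, the OAS gene with the most counts, went from 64.5, 92.8 and 168 to 42.4, 56 and 83.5 CPM in the cKO libraries, by -0.84 ± 0.35 (adjusted p = 0.0438), and in WT from 45.1, 83.7 and 71.2 to 57.2, 127 and 96 CPM with no call. Its cKO call was lost under 9 of the 23 other settings. Zbp1 went from 112, 136 and 199 to 79.9, 109 and 117 CPM, by -0.55 ± 0.21 (adjusted p = 0.0289), and its cKO groups overlapped. Adar, which deaminates adenosine in double-stranded RNA, had a narrow range, with 187, 222 and 229 CPM in the WT libraries and 207, 222 and 265 CPM in the cKO libraries at 0 h and 169.8, 199.8 and 180.4 and 170.3, 181 and 181 CPM at 48 h. It fell in cKO by 0.38 ± 0.10 (adjusted p = 0.0032).

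Ifit3 went from 38.5, 74.8 and 201 to 18.6, 29.4 and 38.3 CPM in the cKO libraries, by -1.87 ± 0.51 (adjusted p = 0.00424), and the call held without cKO replicate 3 at 0 h. In WT it stood at 29.7, 70.8 and 38.2 CPM at 0 h and 25.3, 61.4 and 52.3 CPM at 48 h, with full overlap and no call. Of the nuclear genes Ifi203 and Phf11b also fell in cKO, by 1.48 ± 0.16 and by 0.995 ± 0.25 (adjusted p = 8.54e-07 and 0.00263), as did Irf9, by 1.07 ± 0.15, and Herc6, by 1.32 ± 0.19 (adjusted p = 1.78e-05 and 1.83e-05). Further genes that fell in cKO included Cmpk2, a mitochondrial nucleotide kinase, by 1.83 ± 0.41, Oasl2 by 1.75 ± 0.47, Rtp4, a chaperone of membrane receptors, by 1.15 ± 0.29, and Xaf1, a promoter of cell death that binds the inhibitor XIAP, by 0.999 ± 0.25. Their adjusted p were 0.000973, 0.0036, 0.0028 and 0.00218. Trim30a, a ubiquitin ligase of mice that restrains NF-kB signalling, went from 147, 157 and 251 to 103, 115 and 131 CPM, by -0.67 ± 0.21 (adjusted p = 0.0101).

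Eif2ak2 and Trim25 rose in cKO as well, by smaller amounts than in WT. Eif2ak2 went from 45.6, 47.6 and 70 to 79, 81.1 and 96.5 CPM, by 0.65 ± 0.17 (adjusted p = 0.00329), with no overlap. Trim25 went from 95, 111 and 144 to 153, 128 and 164 CPM, by 0.34 ± 0.14 (adjusted p = 0.0427), and its groups overlapped. The Trim25 call was lost under 8 of the 23 other settings, among them with the 0 h library labelled cKO replicate 1 left out (0.21, adjusted p = 0.195).

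Set side by side, 2 genes were called higher and 10 lower in both genotypes, 4 were called higher in WT and not in cKO (Isg15, Stat2, Bst2 and Parp9), 16 were called lower in cKO and not in WT, and 5 were called in neither (Isg20, an RNA exonuclease, Parp14, Dtx3l, Ifi44 and Ifi35). No gene was called in opposite directions. A call in 1 genotype and not in the other is not itself a difference, and the interaction, the cKO change minus the WT change, tests that.

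The interaction called 0 genes of the list with edgeR, beside 0.113% of all tested genes, 0.105% higher and 0.00806% lower. The median was -0.83, against 0.01 over all tested genes, and 34 of the 37 values were negative. At an unadjusted p under 0.05 there were 19 genes, beside 16.7% of all tested genes; DESeq2 called 2, beside 3.79%, and limma-voom 0, beside 0.153%. A fit with a term for each replicate number in each genotype (the replicate block) called more genes of the list. Its counts stand with the other settings below, because the labels do not say what a replicate number marks. The interaction uses the same 12 libraries as the comparisons above, so its direction is not a separate observation. Without cKO replicate 3 at 0 h the median was -0.50.

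The smallest adjusted p of the interaction was that of Eif2ak2 (-1.06 ± 0.24, adjusted p = 0.0808), followed by Bst2 (-1.01 ± 0.26, adjusted p = 0.0949) and Stat2 (-0.83 ± 0.23, adjusted p = 0.107). In each of them the WT rise was larger than the change in cKO. Ifi44 (-2.51 ± 0.94), Rsad2 (-2.41 ± 1.00) and Isg15 (-2.15 ± 0.68) had the largest values, with adjusted p of 0.208, 0.244 and 0.143. At the other end Samd9l (0.05 ± 0.29), Sp100 (-0.07 ± 0.16) and Ifi203 (0.10 ± 0.22) had values near 0. With both libraries labelled cKO replicate 1 left out, 6 genes were called, beside 6.87% of all tested genes, all with a lower change in cKO: Bst2, Eif2ak2, Ifi44, Isg15, Stat2 and Trim25, with adjusted p between 0.0227 and 0.0493. With only the 48 h library labelled cKO replicate 1 left out, Bst2 and Eif2ak2 were called (adjusted p = 0.0442 and 0.03), beside 7.6% of all tested genes.

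**Figure D5:**
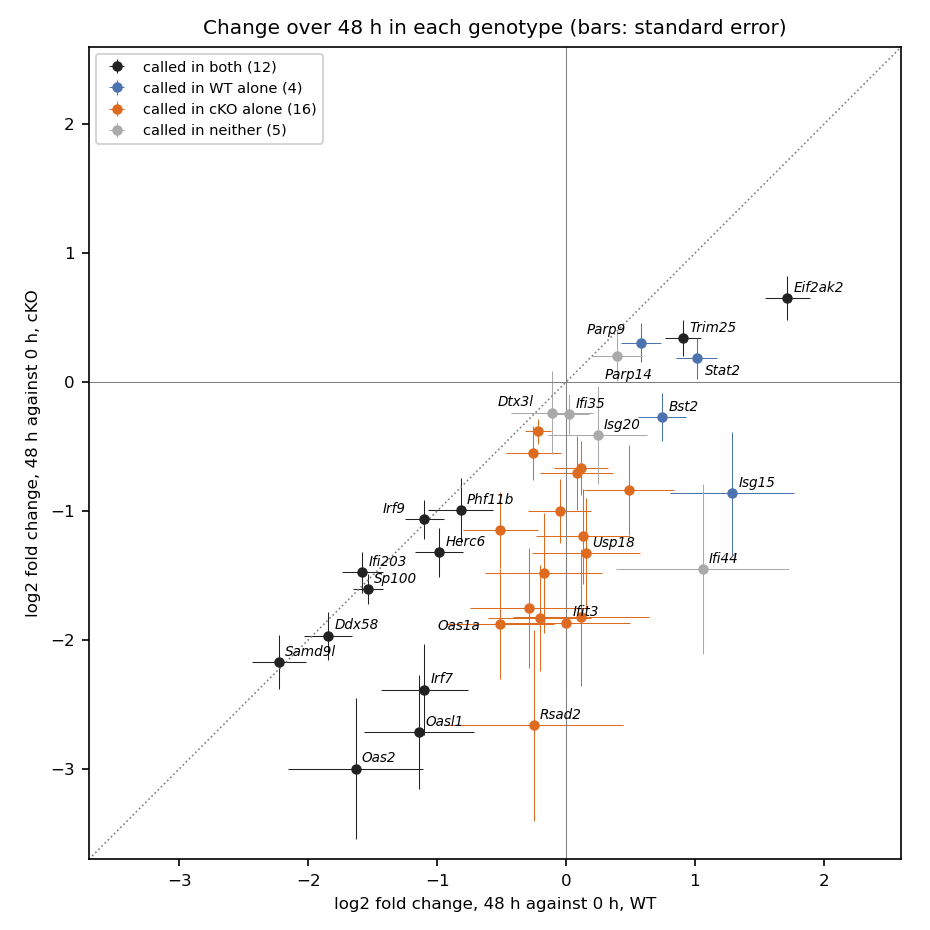
Log2 fold change from 0 h to 48 h in WT (horizontal) and cKO (vertical) for the 37 genes, with standard errors as bars and colours for where the gene was called. Most points lie below the dotted line of equal change; Samd9l, Sp100, Ifi203, Irf9 and Ddx58 lie close to it, and Isg15, Ifi44 and Rsad2 far below it, with long bars.

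Dtx3l did not follow the other genes. It was at 161, 88.6 and 156 CPM in the WT libraries and 124, 82.9 and 101 CPM in the cKO libraries at 0 h, and at 187, 68.1 and 122 and 123, 72.9 and 65.3 CPM at 48 h. WT replicate 2 was low at both times, where most of the list was high, and cKO replicate 3 at 0 h was not raised. WT replicate 2 was the highest of the 3 WT libraries for 33 genes of the list at 0 h, beside 33.4% of all tested genes. At 48 h it was the highest for 32, beside 36.1%. Measured as the Euclidean distance between a gene's 12 values and the mean of the other members, on the log2 scale against WT of the same time, Dtx3l was the farthest of the list at 2.999. The median over the list was 1.09, and Xaf1 at 0.38 and Ifih1 at 0.39 were the nearest. Its partner Parp9 was at 87.5, 111 and 107 CPM in the WT libraries and 91.5, 102 and 154 CPM in the cKO libraries at 0 h, with replicate 3 the highest cKO library. Parp14 was at 148, 229 and 219 CPM in the WT libraries and 151, 179.6 and 294 CPM in the cKO libraries at 0 h, and at 262, 249 and 272 and 252, 229 and 239 CPM at 48 h. It was not called in any comparison.

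Genes with and without an ISRE match in the promoter both showed the high library. In cKO replicate 3 at 0 h the median log2 level against WT was 1.01 over the 15 genes with a match and 0.66 over the 15 without. Among tested genes outside the list it was 0.03 for the 373 with a match and -0.00 for the 9538 without. From 0 h to 48 h the medians of the genes with a match were 0.08 in WT and -0.995 in cKO, and those of the genes without were -0.21 and -1.32. Irf7, Oasl1, Oasl2, Cmpk2, Xaf1 and Ifi44 had none of the letters searched in these 300 bases, which says nothing of sites elsewhere.

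Outside the list, the genes most like its mean profile over the 12 libraries were Trafd1, Ifi27l2a, Trim30c, Rnf213, H2-T24, Jaml, Hsh2d, Tdrd7, Lgals3bp and Plac8. They were the nearest 10 of 9357 tested genes with a mean of at least 5 CPM, by the same Euclidean distance, which ran from 0.45 for Trafd1 to 0.79 for Plac8. The median distance of the genes compared was 1.70, and 8 members of the list were nearer than Plac8. Trafd1, a regulator that damps innate signalling, was at 43.2, 59.8 and 45.2 CPM in the WT libraries and 50.3, 61.7 and 107 CPM in the cKO libraries at 0 h, and at 48, 71.5 and 65.4 and 48, 49.2 and 59.5 CPM at 48 h. As in the list, cKO replicate 3 was the highest library at 0 h and WT replicate 2 at 48 h. Trafd1 was picked for its nearness to the profile of the list, so this likeness is not a separate observation. Of the 10, Ifi27l2a, Rnf213, Hsh2d, Tdrd7 and Lgals3bp were on a separate list of other interferon-induced genes.

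That separate list of other interferon-induced genes held 73 names, 68 of them tested. With edgeR 0 of them were called between the genotypes at 0 h, beside 0.00806% of all tested genes. At 48 h 2 were called, both lower, beside 1.09% of all tested genes: Pttg1, the securin of cell division (-0.65 ± 0.13, adjusted p = 0.0147), and Daxx, a histone chaperone (-0.58 ± 0.15, adjusted p = 0.0481). From 0 h to 48 h, WT had 12 rises, beside 36.9% of all tested genes, and 38 falls, beside 38.4% (median -0.55). In cKO there were 8 rises, beside 36.4%, and 47 falls, beside 36.2% (median -0.86). The 4 with the smallest adjusted p in WT were Shisa5, which fell by 1.76 ± 0.08, Nampt, an enzyme of NAD synthesis, which rose by 2.57 ± 0.14, Uba7, the activating enzyme of Isg15, which fell by 1.89 ± 0.10, and Epsti1, which fell by 2.13 ± 0.12 (edgeR adjusted p at most 6.23e-10).

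The receptor and the signalling chain were present throughout. Ifnar1 was at 155, 156 and 161 CPM in the WT libraries and 149, 152 and 149 CPM in the cKO libraries at 0 h, and at 128, 137 and 122 and 129, 159 and 149 CPM at 48 h. It fell in WT (-0.29 ± 0.08, adjusted p = 0.00383; without both libraries of WT replicate 3, adjusted p = 0.0667) and was not called in cKO (-0.04 ± 0.08, adjusted p = 0.631). Ifnar2 fell in both, from 70.3, 78.2 and 75.3 to 51.5, 47.4 and 47.2 CPM in WT and from 77, 80.8 and 73.6 to 52.4, 58.4 and 53.6 CPM in the cKO libraries. Its log2 fold changes were -0.62 ± 0.07 (adjusted p = 2.34e-06) and -0.49 ± 0.07 (adjusted p = 2.56e-05). Neither receptor gene was called between the genotypes, with values of -0.07 ± 0.08 and 0.05 ± 0.07 at 0 h and 0.18 ± 0.08 and 0.17 ± 0.07 at 48 h. With both libraries labelled cKO replicate 1 left out, Ifnar1 was called higher in cKO at 48 h (0.25, adjusted p = 0.0262).

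Of the 13 genes listed as receptors and proximal signalling, 4 rose and 8 fell in WT, beside 36.9% and 38.4% of all tested genes. In cKO 4 rose and 6 fell, beside 36.4% and 36.2%. None was called between the genotypes, beside 0.00806% of all tested genes at 0 h and 4.18% at 48 h. Irf4 and Irf8, transcription factors of activated lymphocytes, rose by 6.11 and 4.46 in WT and by 6.10 and 4.47 in cKO. Jak1 fell by 2.005 and fell by 1.77, and Irf3, the factor that starts interferon transcription, fell by 1.07 and fell by 1.13. Their adjusted p were at most 8.91e-09 in both genotypes.

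Ifng, the gene of interferon gamma, was at 1.29, 0.338 and 0.879 CPM in the WT libraries and 0.897, 0.461 and 0.239 CPM in the cKO libraries at 0 h, and at 329.7, 361 and 448 and 238, 124 and 188 CPM at 48 h. It rose in both genotypes (8.83 ± 0.36 and 8.42 ± 0.38), and at 48 h it was lower in cKO (-1.05 ± 0.24, edgeR adjusted p = 0.0275), with no overlap between the groups. DESeq2 gave an adjusted p of 0.164. The call was also lost without WT replicate 2 or 3 at 48 h (adjusted p = 0.0536 and 0.15) and without cKO replicate 2 or 3 at 48 h (adjusted p = 0.136 and 0.0767). Irf1, a factor induced strongly by interferon gamma, was at 340.4, 316 and 339.5 CPM in the WT libraries and 345, 344 and 309 CPM in the cKO libraries at 0 h and at 327, 284 and 309 and 355, 337 and 338 CPM at 48 h, and was called in none of the 5 comparisons; with upper-quartile scaling it was called lower over time in WT (-0.22, adjusted p = 0.0107). In the interferon gamma list of 22 genes, 10 rose and 7 fell in WT over time, beside 36.9% and 38.4% of all tested genes. In cKO 13 rose and 4 fell, beside 36.4% and 36.2%. Between the genotypes at 48 h 1 was higher, Gbp4 (0.52, adjusted p = 0.0181), beside 3.1% of all tested genes, and 1 lower, Ifng, beside 1.09%.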

How the data were processed

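RNA was extracted from 12 samples of primary splenic CD8 T cells with TRIzol and sequenced from NEBNext Ultra RNA libraries, per the labels' protocols. The authors deposited 1 table of raw read counts per gene, with 1 column per library. The submitters' processing notes name the aligner HISAT2 2.1.0 and the counter HTSeq 0.11.2, beside fastp 0.20.1, FastQC 0.11.9 and SAMtools 1.9, and the build GRCm39; the annotation and the strand setting are not given in the sources used here, so reads of a gene and of an overlapping neighbour cannot be told apart. Columns were matched to samples by the labels' descriptions.

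Counts were analysed in R 4.3.3 with edgeR 4.0.16 (TMM factors, filterByExpr at 10 counts per library and 15 in total, quasi-likelihood test) in 1 fit with 4 group means over 12 libraries. P-values were adjusted by Benjamini-Hochberg over all 12404 tested genes and called at 0.05 with no minimum fold. Standard errors were derived from each fold change and its F statistic. Levels per library are log2 CPM with a prior count of 2 where a log scale is named. DESeq2 1.42.0 and limma 3.58.1 (voom), other scalings and filters, a replicate block and left-out libraries were tried as alternatives. The scripts were tested on simulated data. The labels give no batch, so no value within batches was computed.

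The 37 genes, their roles and the other gene lists were chosen with earlier results of these data known. All 37 are named. Full values are given for members called between genotypes, for the 5 largest rises and 5 largest falls called over time in each genotype, for the member with the most counts in each role, and for 5 genes outside the list (Ifnar1, Ifnar2, Ifng, Irf1 and Trmt61a), a further gene and a marker being not reported here; genes picked otherwise are marked so. Promoters are from RefSeq on GRCm38.p6, matched by the gene identifier of the count table, and no coordinate was moved between builds. The lowest count of any member in a library was 25, for Ifi44, so counting error weighs most on that gene.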

Additional observations from a re-analysis of the deposited data

How the results depend on the processing

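Each comparison was repeated under 23 other settings (22 for the interaction). At 0 h the count of called genes stayed at 0 except without both libraries labelled cKO replicate 1, where it was 1. At 48 h it was 3 with no filter on low counts (beside 4.3% of all tested genes), 3 with DESeq2 (8.82%), 5 with the replicate block (4.97%; Eif2ak2, Isg15, Stat2, Trim25 and Trim30a), 1 without both libraries labelled cKO replicate 1 (17.7%), 1 without both libraries of cKO replicate 3 (1.56%; Eif2ak2), and 0 to 3 with 1 library left out. For the interaction it was 2 with no filter (0.746%), 2 with DESeq2 (3.79%), 12 with the replicate block (0.298%), all with a lower change in cKO, 6 without both libraries labelled cKO replicate 1 (6.87%), and 0 to 2 with 1 library left out. Over time it ran from 13 to 23 in WT and from 22 to 31 in cKO, the highest with the replicate block in both; 12 of the 16 WT calls and 19 of the 28 cKO calls held under every setting. The cause of these changes was not tested.

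The labels do not say what a replicate number marks. Deviations of same-numbered libraries at 0 h and 48 h correlated at 0.071, 0.097 and 0.151 in WT and at 0.052, 0.063 and 0.034 in cKO, so the numbers were not taken as pairs, although every library correlated best with its own number over time, which is a hint from the data and not from the design. The near absence of Y-linked counts in WT replicate 3 and the WT-level Trmt61a of the libraries labelled cKO replicate 1 likewise recur at both times.

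Upper-quartile scaling moved the median of all genes over time from -0.02 to -0.12 in both genotypes. Genes that changed sign were uncalled. Without both libraries of cKO replicate 3, this held for Trim25 (-0.0633), Parp14 (-0.26), Sp100 (-0.0102), Trim30a (-0.0625) at 0 h. With both libraries labelled cKO replicate 1 left out, this held for Samd9l (0.023), Irf1 (-0.0244) at 0 h and Samd9l (0.16), Sp100 (0.0284) at 48 h and Ifnar1 (0.0333) over time in cKO. With upper-quartile scaling, this held for Samd9l (0.0129) at 48 h and Irf1 (-0.0482) over time in cKO. With limma-voom, this held for Samd9l (0.0156) at 48 h. With the replicate block, this held for Samd9l (0.0027) at 48 h. Without both libraries of WT replicate 3, this held for Samd9l (0.0001) at 48 h. At 0 h, with 1 library left out, values crossed 0 for Trim25 (-0.0628 to 0.25), Samd9l (-0.23 to 0.0225), Parp14 (-0.26 to 0.25), Sp100 (-0.0343 to 0.0685), Trim30a (-0.062 to 0.36), Irf1 (-0.0312 to 0.0518). At 48 h, with 1 library left out, values crossed 0 for Adar (-0.0862 to 0.0189), Samd9l (-0.20 to 0.23), Sp100 (-0.17 to 0.0745). Over time in cKO, with 1 library left out, values crossed 0 for Ifnar1 (-0.0993 to 0.0466), Irf1 (-0.003 to 0.0727). In the interaction, with 1 library left out, values crossed 0 for Samd9l (-0.14 to 0.29), Ddx58 (-0.30 to 0.0494), Ifi203 (-0.0196 to 0.34), Sp100 (-0.20 to 0.0517).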

Other observations

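Negative regulators of interferon signalling rose or fell over time in both genotypes, as most tested genes did. Of 15 genes listed, 7 rose and 7 fell in WT, beside 36.9% and 38.4% of all tested genes. In cKO 7 rose and 6 fell, beside 36.4% and 36.2%. With edgeR 0 were called between the genotypes, beside 0.00806% of all tested genes at 0 h and 4.18% at 48 h. The SOCS family, which blocks cytokine receptors and their kinases, divided: Socs2 rose by 6.11 ± 0.34 in WT and 6.09 ± 0.36 in cKO, Cish by 4.14 ± 0.29 and 4.59 ± 0.30, and Socs1 by 1.46 ± 0.10 and 1.37 ± 0.09, while Socs3 fell by 2.07 ± 0.09 and fell by 2.56 ± 0.09 (edgeR adjusted p at most 7.35e-09 for these genes).

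Of 20 tested genes of upstream sensing, 7 rose and 6 fell in WT, beside 36.9% and 38.4% of all tested genes. In cKO 5 rose and 6 fell, beside 36.4% and 36.2%. Ikbke, a kinase of innate signalling that phosphorylates Irf3, was higher in cKO at 48 h (0.56 ± 0.10, edgeR adjusted p = 0.00826) and fell over time in both genotypes (-2.36 ± 0.10 in WT and -1.86 ± 0.10 in cKO). It was the only gene of that list called between the genotypes, where 3.1% of all tested genes were called higher at 48 h.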
